A study of Mus musculus with 20 samples.

Results

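Cone photoreceptors lacking Dgcr8 were followed here over the last interval of the study, from postnatal day 60 (P60) to P90. The comparison used the 4 knockout libraries of these ages, 2 at P60 and 2 at P90, out of 20 libraries in all. Genes were taken where the mean over these 4 libraries reached 5 counts per M counts (CPM, M for mega), which left 10533 of 23077 named genes. A gene under this level at one age could pass through the other age alone. All animals were C57BL/6 mice kept under a light-dark cycle, and cones were isolated from the retina by fluorescence-activated cell sorting. The knockout group was C-DGCR8 KO, with D4-cre, the DGCR8 KO allele and Ai9 tdTomato, in which D4-cre deletes a conditional Dgcr8 allele in cones after birth and the floxed reporter Ai9 marks these cells with tdTomato. The wild-type groups at P60 and P90 are labelled D4-cre/Ai9 tdTomato, so the driver and the reporter were shared, and the protocol also allows D4-cre animals without the reporter as controls. Other knockout and wild-type libraries, at P30, P40 and P50, gave the earlier course and a common estimate of the spread. The labels give neither the sex of the animals nor how many were pooled, and they do not state whether both libraries of a group came from separate mice. The p-values therefore reflect the scatter of these libraries alone, and that scatter may be technical.

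Cones work in daylight and carry colour vision. Light closes a channel in the outer segment through an opsin, the G protein transducin, a phosphodiesterase and the fall of cyclic GMP, and arrestin, recoverin-type calcium sensors and guanylate cyclases return the cell to the dark state. Mouse cones make a short-wavelength opsin (Opn1sw), a middle-wavelength opsin (Opn1mw) or both. Dgcr8 is the RNA-binding partner of the nuclease Drosha, which cuts microRNA hairpins out of primary transcripts, and the miR-183/96/182 cluster is among the most abundant microRNA families of photoreceptors.

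The knockout libraries held 6.73 and 7.99 M counts at P60 and 5.6 and 5.21 M at P90, within a range of 2.24 to 10.37 M over the series. Values below are CPM scaled by TMM factors, and a log2 fold change is P90 minus P60 with its standard error (SE) from edgeR's quasi-likelihood fit. A gene was called at a Benjamini-Hochberg adjusted p below 0.05 over the 10533 genes. The 2 wild-type P60 libraries stood apart from the other 18. They were the deepest (10.37 and 9.82 M counts), yet reads fell on the fewest genes (13988 and 14139). The share of counts on 1420 olfactory and vomeronasal receptor genes, which are silent in retina, was 0.0092% and 0.0098% in them, against 0.1069% and 0.0757% in wild-type P90. In the knockout this share was 0.0406% and 0.0388% at P60 and 0.0518% and 0.0495% at P90. For this reason the main comparisons with the wild type are also given with the P50 wild-type libraries in place of P60, an alternative chosen after the data were seen.

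Dgcr8 itself (chromosome 16) stood at 69.2 and 62.8 CPM in the libraries labelled KO at P60 and at 78.6 and 93.1 CPM at P90. Its change was 0.38 (SE 0.144, adjusted p = 0.0569), which did not pass the test. It did pass with DESeq2 (0.37, adjusted p = 0.042) and with TMM computed on abundant genes (0.43, adjusted p = 0.0306). The wild-type P90 libraries read 91.4 and 101 CPM, so the libraries labelled KO at P90 overlapped the wild type. Which exons are deleted is not stated in the labels, and reads from the rest of the gene can remain, so the gene count is a weak check of the genotype. Its partner Drosha was at 109 and 99.4 CPM at P60 and 99.2 and 89.6 CPM at P90 (log2 fold change −0.14, adjusted p = 0.503).

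The libraries of the 2 ages also differed in the X-inactivation transcript Xist, which female cells express. Xist was at 1660 and 1710 CPM at P60 and at 152 and 156 CPM at P90, a log2 fold change of −3.45 (SE 0.104, adjusted p = 1.88e-27). The Y-linked genes moved the other way, with Eif2s3y, a translation initiation factor subunit, at 58.8 and 62.6 CPM at P60 and 144 and 133 CPM at P90 (1.19, SE 0.132, adjusted p = 4.92e-09). The histone demethylase gene Kdm5d rose by 1.20, and Uty and the helicase gene Ddx3y by 0.94 and 0.91. X-linked relatives of these Y genes have similar sequences, and reads may be split between them. All 4 libraries therefore hold both transcripts, in proportions that changed with age, and sex and age cannot be told apart for genes of the sex chromosomes. On the autosomes 602 genes were called higher and 885 lower of 10108 tested, 14.7% together. The X chromosome had 13 higher and 45 lower of 358, a median of −0.13 against 0.01 on the autosomes. Opn1mw and Arr3 are X-linked, and the part of the Xist difference in their change was not tested.

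From P60 to P90, 623 genes were higher (5.91% of those tested) and 933 lower (8.86%) in knockout cones, 14.8% in either direction, and the median over all genes was 0.00. At least 2-fold changes were called for 206 genes upward (1.96%) and 101 downward (0.959%). The split between directions depended on the scaling. Of all calls 40% were upward, against 52.4% (786 higher, 715 lower) with TMM computed on the 5590 genes that average 32 CPM or more, 29.9% (662 higher, 1553 lower) with edgeR's filterByExpr and 31.1% without a filter. The last 2 settings moved the median of the same genes by −0.12. Leaving out P60 replicate 1 gave 355 higher and 662 lower genes, and leaving out P90 replicate 1 gave 290 and 553. Without P90 replicate 2 the counts were 338 and 589, and without P60 replicate 2 they were 518 and 806.

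**Figure D1:**
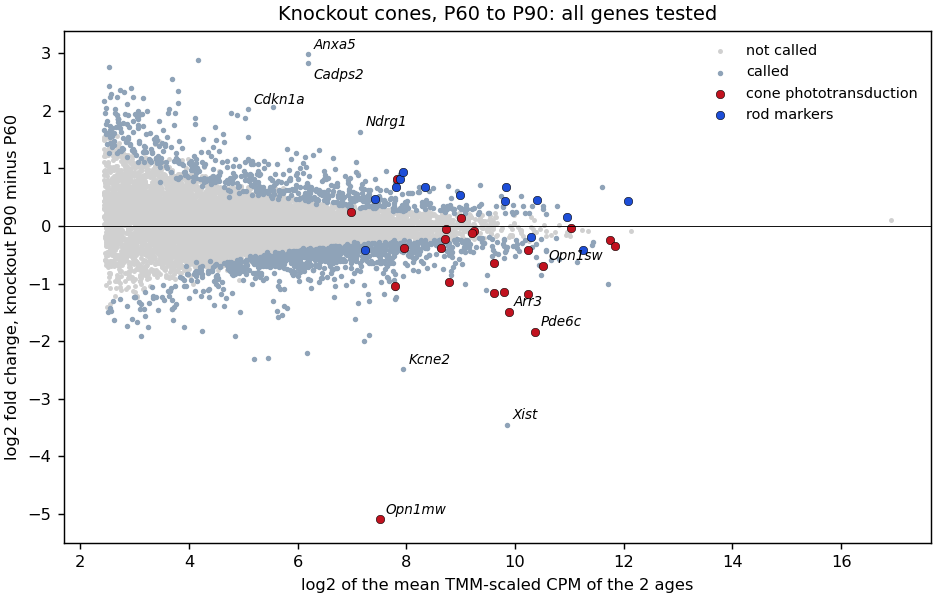
Change from P60 to P90 in knockout cones (vertical axis, log2 fold change) against the mean level of the 2 ages (horizontal axis, log2 of TMM-scaled CPM), 1 point for each of the 10533 genes, with called genes in slate, others in grey, cone phototransduction genes in red and rod markers in blue. Opn1mw lies at −5.10 and Xist at −3.45, most red points lie below 0, and 10 of the 14 rod markers were called above it.

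Most genes of cone phototransduction fell. Of the 23 listed genes, all of which passed the filter, 16 were lower and 1 higher, against 8.86% and 5.91% of all genes, with a median of −0.39 against 0.00. In wild-type cones 17 were lower and 2 higher over the same interval, against 13.7% and 17.9% of all genes, with a median of −0.56. The middle-wavelength opsin gene Opn1mw (chromosome X, 74127466 to 74150756, GRCm38) was the extreme in the knockout. It was at 346 and 367 CPM at P60 (2127 and 2696 counts) and at 13.2 and 7.37 CPM at P90 (69 and 36 counts). Both P90 libraries lay far below both P60 libraries. This is a change of −5.10 on the log2 scale (SE 0.125, adjusted p = 1.02e-30), a 34.4-fold fall.

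The short-wavelength opsin gene Opn1sw (chromosome 6, 29376671 to 29380513) fell much less. Its levels were 1730 and 1890 CPM at P60 and 1120 and 1110 CPM at P90, without overlap. This is a change of −0.69 on the log2 scale (SE 0.0517, adjusted p = 1.11e-13). The 2 opsin genes had thus parted within the same libraries, one 34.4-fold and the other 1.62-fold lower.

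**Figure D2:**
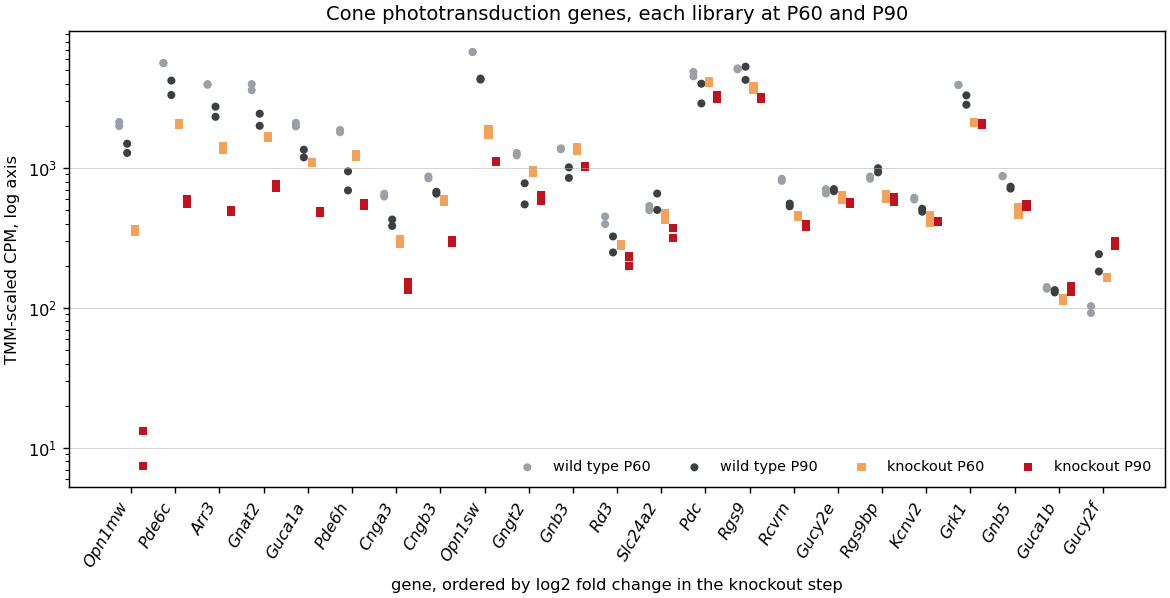
Levels of the 23 cone phototransduction genes in each library (TMM-scaled CPM, log axis), with genes ordered by their change in the knockout, wild type as circles and knockout as squares. Knockout Opn1mw drops from 346 and 367 CPM to 13.2 and 7.37 CPM, while Gucy2f at the right end rises to 279 and 300 CPM.

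Below the opsins, the activation steps fell together. Gnat2, the alpha subunit of cone transducin (chromosome 3, 108086788 to 108101432), was at 1700 and 1650 CPM at P60 and 763 and 720 CPM at P90 (−1.18, SE 0.0671, adjusted p = 1.67e-17). The beta subunit gene Gnb3 fell from 1420 and 1330 to 1030 and 1020 CPM (−0.42) and the gamma subunit gene Gngt2 from 926 and 973 to 577 and 642 CPM (−0.64). Pde6c, the catalytic subunit of the cone phosphodiesterase (chromosome 19, 38132781 to 38183955), was at 2080 and 2040 CPM at P60 and 599 and 551 CPM at P90 (−1.84, SE 0.0661, adjusted p = 1.16e-24). The fall of Pde6c was the largest of the list after Opn1mw. The inhibitory subunit gene Pde6h went from 1190 and 1250 to 538 and 563 CPM (−1.15, SE 0.0833, adjusted p = 5.3e-14). The cyclic GMP-gated channel genes Cnga3 (311 and 285 to 135 and 153 CPM, −1.05) and Cngb3 (597 and 575 to 293 and 304 CPM, −0.97) fell by similar amounts, and the potassium-dependent sodium-calcium exchanger gene Slc24a2 by less (424 and 475 to 372 and 317 CPM, −0.38, a call lost without P90 replicate 2). None of the genes of the activation steps named here had overlapping groups. Of all genes tested, 26.9% lay lower at P90 without overlap and 26.5% higher.

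Among the genes of recovery, Arr3, cone arrestin (chromosome X, 100605480 to 100618493), was at 1340 and 1440 CPM at P60 and 486 and 502 CPM at P90 (−1.49, SE 0.0667, adjusted p = 3.08e-21). Guca1a, which activates guanylate cyclase when calcium is low, fell from 1080 and 1100 to 479 and 491 CPM (−1.17). The fall was small for Pdc, a binding partner of the transducin beta and gamma subunits (−0.35), Rgs9, which speeds transducin shut-off (−0.24), and recoverin, Rcvrn (−0.22). The call of Rgs9 was lost without P60 replicate 1 or P90 replicate 2, and that of Rcvrn without P60 replicate 2 or P90 replicate 1, with TMM on abundant genes (adjusted p = 0.0775) and with edgeR fitted to the 4 knockout libraries alone (adjusted p = 0.0679). The cyclase gene Gucy2f went the other way, from 166 and 164 to 279 and 300 CPM (0.81, SE 0.104, adjusted p = 1.8e-07). Rd3, which restrains and transports guanylate cyclases, fell from 287 and 279 to 200 and 233 CPM (−0.39, adjusted p = 0.0052, a call lost without P90 replicate 1). The opsin kinase gene Grk1 stood at 2140 and 2080 CPM at P60 and 2100 and 2040 CPM at P90 and was not called (−0.03, adjusted p = 0.802). The remaining 5 members, Gnb5 and Rgs9bp of the transducin shut-off complex, the cyclase gene Gucy2e, the cyclase activator gene Guca1b and the potassium channel gene Kcnv2, ran from −0.13 to 0.25 and were not called either. Grk1, Rcvrn, Rgs9, Pdc and Gucy2f are among the members also transcribed in rods, and they ranged from −0.35 to 0.81. Other members, among them Guca1a (−1.17) and Rd3 (−0.39), were not sorted by whether rods transcribe them. In bulk libraries, fewer cones among the sorted cells and less of these transcripts per cone cannot be told apart.

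The promoters of 4 of these genes, X-linked and autosomal, are printed with the matches to a photoreceptor motif marked. Each is the stretch of 250 bases before the start, from the RefSeq table of GRCm38.p6, on the coding strand. Capitals mark TAATCC or TAATCT on either strand, core sequences bound by the photoreceptor factors CRX and OTX2, a motif set chosen after the sequences were seen. The stretches are chrX:74127216-74127465 (plus strand) for Opn1mw, chr6:29380514-29380763 (minus) for Opn1sw, chrX:100605247-100605496 (plus) for Arr3 and chr3:108092816-108093065 (plus) for Gnat2. The starts used for Arr3 and Gnat2 lie inside the annotated span of the gene. Opn1mw, the gene that fell most, had 0 matches, Opn1sw 1, Arr3 3 and Gnat2 1.
Opn1mw: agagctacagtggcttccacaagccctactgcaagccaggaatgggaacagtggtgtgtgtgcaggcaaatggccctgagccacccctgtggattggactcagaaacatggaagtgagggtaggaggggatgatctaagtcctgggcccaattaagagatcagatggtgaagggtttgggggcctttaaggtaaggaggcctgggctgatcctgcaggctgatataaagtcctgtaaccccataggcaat
Opn1sw: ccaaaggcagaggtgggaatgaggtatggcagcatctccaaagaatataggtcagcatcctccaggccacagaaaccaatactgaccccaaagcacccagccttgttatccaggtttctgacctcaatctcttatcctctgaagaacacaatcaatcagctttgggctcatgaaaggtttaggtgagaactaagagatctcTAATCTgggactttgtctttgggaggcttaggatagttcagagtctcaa
Arr3: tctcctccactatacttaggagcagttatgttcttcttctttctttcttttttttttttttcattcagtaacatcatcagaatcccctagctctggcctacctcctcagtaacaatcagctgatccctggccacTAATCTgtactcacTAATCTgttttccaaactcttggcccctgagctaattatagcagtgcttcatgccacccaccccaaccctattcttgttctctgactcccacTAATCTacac
Gnat2: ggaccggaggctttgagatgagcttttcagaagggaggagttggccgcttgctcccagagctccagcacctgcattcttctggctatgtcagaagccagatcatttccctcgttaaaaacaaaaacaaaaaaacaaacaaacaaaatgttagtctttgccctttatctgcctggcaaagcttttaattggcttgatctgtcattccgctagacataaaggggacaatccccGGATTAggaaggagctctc
Of all 27025 promoters of RefSeq, 14.6% held a match, and of the 7583 tested genes with an entry 11.5%. Among the 16 lower cone phototransduction genes, 11 had an entry and 5 of these a match (45.5%). Of the 7 other members of the list, 4 had an entry and 3 a match (75%). The factor gene Crx was at 1400 and 1460 CPM at P60 and 1400 and 1350 CPM at P90 (−0.06, SE 0.0712, adjusted p = 0.649).

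The same interval in wild-type cones showed which of these falls were larger in the knockout. The wild-type step called 3331 genes (31.6%), 17.9% higher and 13.7% lower, and the difference between the steps, knockout minus wild type, called 332 genes with a more positive change in the knockout (3.15%) and 842 with a more negative one (7.99%), 11.1% in all. With the wild-type P50 libraries in place of P60 the wild-type comparison called 457 genes higher and 416 lower, and the difference 247 and 454. Leaving out wild-type P90 replicate 1 reduced the 842 to 530, and leaving out knockout P90 replicate 1 or 2 reduced the 332 to 197 or 190. In the cone phototransduction list the difference was more negative for 8 genes and more positive for 3.

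Markers of other retinal cells moved with the wild-type step. Of 12 bipolar cell markers 11 were higher in wild type (median 1.33), of 9 amacrine markers 7 (1.98), of 11 Mueller glia markers 10 (1.26) and of 7 horizontal cell markers 4 (1.29), with none lower. Over all genes 17.9% were higher in the wild-type step. The summed bipolar level went from 479 and 506 to 1160 and 980 CPM in wild type and the summed Mueller glia level from 595 and 583 to 1240 and 1010 CPM. At wild-type P50 the bipolar sum was 741 and 731 CPM and the Mueller glia sum 1360 and 1420 CPM. The median difference of the steps was −1.28 for the bipolar, −1.59 for the amacrine, −0.80 for the Mueller glia and −1.55 for the horizontal cell markers. Of these markers 7, 6, 5 and 4 were called more negative, against 7.99% of all genes, and none more positive. The part of these cells in the wild-type step and in the differences given next was not tested.

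Opn1mw was at 1990 and 2130 CPM in wild-type P60 and 1280 and 1490 CPM in wild-type P90, a change of −0.57, so the knockout step was lower by −4.54 (SE 0.154, adjusted p = 1.67e-25). With wild-type P50 in place of P60 the difference was −5.11. Pde6c changed by −0.58 in wild type (difference −1.26, adjusted p = 9.1e-14, and −1.80 against P50) and Arr3 by −0.64 (difference −0.85, adjusted p = 6.34e-09, and −1.87 against P50). Gnat2 and Guca1a differed by −0.41 and −0.49 (adjusted p = 0.00238 and 0.000283), and by −0.72 and −0.76 against P50. These 5 genes fell further in the knockout whichever wild-type age was used, although the call of the Gnat2 difference was lost without wild-type P90 replicate 2 (−0.22, adjusted p = 0.0646), with filterByExpr (−0.27, adjusted p = 0.0548) and without a filter (−0.25, adjusted p = 0.0509).

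For Opn1sw the wild-type libraries went from 6740 and 6730 CPM to 4280 and 4350 CPM (−0.64), and the difference was −0.05 (SE 0.0724, adjusted p = 0.746). Against wild-type P50 it was −0.62 (adjusted p = 3.67e-08), so this comparison turned on the wild-type P60 libraries. Wild-type means of Opn1sw were 4550, 6740 and 4320 CPM at P50, P60 and P90, those of Opn1mw 1380, 2060 and 1390 CPM, and those of Arr3 1950, 3950 and 2530 CPM. In each of these genes the P60 mean was thus the highest of the 3. Pde6h behaved likewise, with a difference of 0.02 (SE 0.116, adjusted p = 0.946) against P60 and −0.59 (adjusted p = 0.000548) against P50. For Opn1sw and Pde6h the matched and the replaced comparison therefore gave different calls.

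**Figure D3:**
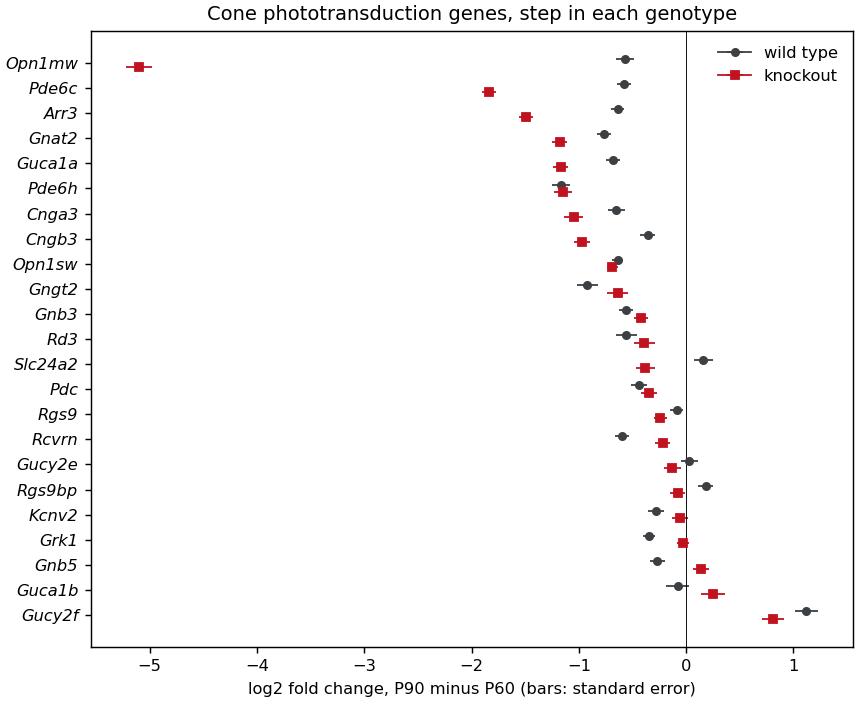
Change from P60 to P90 (horizontal axis, log2 fold change, bars are the SE) of the 23 cone phototransduction genes in wild-type cones (grey circles) and knockout cones (red squares). The 2 genotypes lie far apart for Opn1mw (−5.10 and −0.57) and nearly together for Pde6h (−1.15 and −1.17).

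Several lower genes outside phototransduction fell with the cone genes. Kcne2, a potassium channel beta subunit found in cones (chromosome 16, 92292389 to 92298133), was at 448 and 388 CPM at P60 and 73.6 and 74.7 CPM at P90 (−2.49, SE 0.107, adjusted p = 8.74e-22). The secreted-protein gene Fam19a3 fell from 254 and 249 to 79.9 and 54.4 CPM (−1.90, SE 0.104, adjusted p = 5.69e-18). In both genes the ages did not overlap, which the rule that named them required. The metallothionein gene Mt1 fell from 250 and 231 to 51.3 and 68.8 CPM (−2.0) and the granin gene Scg3 from 1020 and 906 to 468 and 428 CPM (−1.11). All 4 fell further than in wild type, with differences of −1.79 (Kcne2), −1.61 (Fam19a3), −1.07 (Mt1) and −0.74 (Scg3), and the differences against wild-type P50 were −2.13, −2.43, −1.72 and −1.21.

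Some genes that fell in the knockout rose from P60 to P90 in wild type. Kcnma1, the calcium-activated BK potassium channel, went from 253 and 280 to 113 and 123 CPM in the knockout (−1.18, SE 0.0902, adjusted p = 2.29e-13) and stood at 213 and 233 CPM at P60 and 329 and 273 CPM at P90 in wild type. The difference was −1.61 (SE 0.125, adjusted p = 1.05e-12), and −1.18 against wild-type P50. Pcdh15, a protocadherin of the calyceal processes (1620 and 1810 to 1070 and 1080 CPM, −0.67), had a difference of −1.05. Against wild-type P50 it was −1.28. Nap1l5 (−0.69) and the band 4.1-type scaffold gene Epb4.1l3 (−0.53) differed by −1.43 and −1.44, and by −0.82 and −0.84 against P50. The endoplasmic reticulum isomerase gene Fkbp9 fell by 0.68 with a difference of −4.16, which rests on 2.67 and 0.939 CPM in wild-type P60, and against P50 the difference was −0.26 (adjusted p = 0.668). The call of Fkbp9 in the knockout step was lost without P90 replicate 2.

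The outer segment list, which holds genes of disc structure, retinoid handling and protein delivery, had 21 tested of 22. Of these, 8 were lower and 3 higher, against 8.86% and 5.91% of all genes, with a median of −0.11. In wild type 12 were lower and 4 higher over the same interval, against 13.7% and 17.9% of all genes, with a median of −0.31. Pcdh15 led the falls, followed by the matrix proteoglycan gene Impg1 (319 and 319 to 210 and 190 CPM, −0.68) and Aipl1, the chaperone of the phosphodiesterase (1220 and 1190 to 810 and 859 CPM, −0.53). Rp1, a microtubule protein of the axoneme, was the clearest rise, from 2380 and 2420 to 3830 and 3810 CPM (0.67, SE 0.0515, adjusted p = 2.29e-13). The difference from the wild-type step was 0.46 (adjusted p = 1.4e-05), and 0.87 against P50. Of 36 tested genes of the cilium and intraflagellar transport, 5 were lower and 3 higher, against 8.86% and 5.91% of all genes, with a median of −0.01. Among these Bbs7, of the BBSome coat, rose from 167 and 142 to 244 and 233 CPM (0.63) and Lca5, a ciliary transport protein, fell from 245 and 245 to 179 and 182 CPM (−0.44).

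At the synapse, where cones release glutamate from ribbons, 13 of 30 genes were lower and 1 higher, against 8.86% and 5.91% of all genes, with a median of −0.19. Syp, a vesicle membrane protein, fell from 2980 and 2490 to 1770 and 1760 CPM (−0.63, SE 0.078, adjusted p = 7.66e-08). The vesicle protein gene Sv2b fell from 1690 and 1800 to 1330 and 1280 CPM (−0.42) and Cplx3, a complexin of ribbon synapses, from 511 and 505 to 289 and 318 CPM (−0.74). The t-SNARE gene Stx3 fell from 850 and 917 to 638 and 689 CPM (−0.41). The active-zone gene Pclo was the member that rose (504 and 489 to 620 and 593 CPM, 0.29, adjusted p = 0.0405), a call lost without any 1 of the 4 libraries (adjusted p = 0.11 to 0.251). None of Syp, Sv2b, Cplx3 and Stx3 was called in the difference of the steps, and the same genes changed by −0.43, −0.61, −0.53 and −0.52 in wild type. Over the whole list the difference was called more negative for 6 genes and more positive for 1, against 7.99% and 3.15% of all genes. In wild type 9 of the 30 were higher and 8 lower, against 17.9% and 13.7% of all genes, with a median of −0.07. Of 16 channels and pumps of the inner segment 8 were lower and 3 higher, among the latter the potassium channel gene Kcnj14 (74.4 and 82.7 to 131 and 133 CPM, 0.75). In wild type 6 of the 16 were higher and 3 lower, with a median of 0.16, and the difference was called more negative for 7 and more positive for none. The counts of differences in these lists were not computed against wild-type P50.

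Rod transcripts went the other way from cone transcripts from P60 to P90 in both genotypes. Of 14 rod markers 10 were higher and 2 lower in the knockout (median 0.46), against 5.91% and 8.86% of all genes. Of 12 cone markers 11 were lower (median −1.10). The wild-type step had the same directions, with 10 rod markers higher and 2 lower (median 0.80) and all 12 cone markers lower (median −0.64). Over all genes it called 17.9% higher and 13.7% lower. The wild-type rod sum was 18600 and 18800 CPM at P50, 12400 and 12300 CPM at P60 and 15100 and 14900 CPM at P90, so at P90 it lay above P60 and below P50. The difference of the steps was called more negative for 6 rod markers and more positive for 2 (median −0.37), and more negative for 7 cone markers (median −0.40). Over all genes 7.99% were called more negative and 3.15% more positive. The summed level of the cone markers was 14200 and 14100 CPM at P60 and 7560 and 7540 CPM at P90. The summed level of the rod markers was 14000 and 13600 CPM at P60 and 16200 and 16400 CPM at P90. Both P90 libraries thus lay below both P60 libraries for the cone sum and above them for the rod sum. Pde6b, a subunit of the rod phosphodiesterase, rose from 703 and 693 to 1110 and 1130 CPM (0.68). The rod channel gene Cnga1 rose from 269 and 232 to 397 and 404 CPM (0.68). Leaving out P60 replicate 1 or 2 changed the 2 lower rod markers to 1 or 3. The rod arrestin gene Sag fell from 2790 and 2820 to 2110 and 2100 CPM (−0.41), and arrestin-1 is also present in cones. The part of the rod markers in the changes of other genes was not tested.

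Among 20 photoreceptor transcription factors 8 were higher and 2 lower, against 5.91% and 8.86% of all genes, with a median of 0.04. Nr2e3, the rod nuclear receptor, rose from 184 and 152 to 324 and 317 CPM (0.93, SE 0.12, adjusted p = 2.04e-07) and Nrl, the rod determination factor, from 167 and 171 to 303 and 297 CPM (0.82). Their neighbours in the list, the SAM-domain repressor genes Samd7 (95.9 and 110 to 161 and 150 CPM, 0.59) and Samd11 (119 and 130 to 215 and 223 CPM, 0.82), rose as well. Rxrg, the retinoid receptor of cones, fell from 36.1 and 35.4 to 21.5 and 19.4 CPM (−0.80, adjusted p = 0.00366, a call lost without P90 replicate 2). Without any 1 of the 4 libraries 1 of the 2 lower factors was called. Both Nrl and Nr2e3 are counted with the rod markers too. The difference from wild type was called for Nr2e3 (0.62, adjusted p = 0.0164, and 1.69 against P50) and Samd7 (0.75, adjusted p = 0.000432, and 0.76 against P50) but not for Nrl (0.36, adjusted p = 0.106). The difference of Nr2e3 was not called without P60 replicate 2 or either P90 library of the knockout, nor without wild-type P60 replicate 2 or P90 replicate 1 (adjusted p = 0.0558 to 0.117).

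Markers of other retinal cells were present in all 4 libraries. Over all genes tested, 5.91% were called higher and 8.86% lower in the knockout step. Of 11 tested markers of Mueller glia 5 were higher, none lower, and their sum went from 799 and 863 to 1100 and 1110 CPM, with the water channel gene Aqp4 at 31.6 and 23.8 CPM at P60 and 65.2 and 45.6 CPM at P90 (1.01, adjusted p = 0.00114, a call lost without P90 replicate 1). The 4 tested vessel markers gave 2 higher, and the sum of all 11 listed went from 72.8 and 98.6 to 166 and 186 CPM. Of 13 microglia markers none reached the filter, and their sum went from 9.93 and 10.9 to 26.7 and 29.5 CPM, with the defining Aif1 and Cx3cr1 at 0 counts at P60 and at most 2.25 CPM at P90. Of 12 bipolar cell markers 1 was higher, with sums of 593 and 566 CPM at P60 and 619 and 606 CPM at P90, and of 9 amacrine markers none was called. Of 7 horizontal cell markers 1 was higher and 1 lower, and of 6 ganglion cell markers 1 was higher. Of 2 astrocyte markers none was called, and no marker of pigment epithelium, erythrocytes or lens reached the filter. The part of these cells in the rising genes described next was not tested.

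The genes that rose with the smallest p-values had several functions. Ndrg1, a stress-induced gene of differentiation and myelin biology (chromosome 15, 66929318 to 66969641), was at 66.9 and 70.9 CPM at P60 and 214 and 216 CPM at P90 (1.64, SE 0.153, adjusted p = 6.72e-11). Cadps2, which primes dense-core vesicles for release (chromosome 6, 23262773 to 23841175), went from 21.5 and 14.3 to 121 and 134 CPM (2.84, SE 0.268, adjusted p = 9.31e-11). Anxa5, a calcium-dependent phosphatidylserine-binding protein (chromosome 3, 36448923 to 36475887), went from 14.8 and 18.1 to 127 and 133 CPM (2.98, SE 0.3, adjusted p = 5.4e-10). In all 3 the P90 libraries lay above the P60 libraries, which the rule that named them required. For Anxa5 the rise was 7.89-fold. Cadps2 and Anxa5 rose more than in wild type, by 1.64 (adjusted p = 0.00502) and 1.92 (adjusted p = 0.00633), and by 2.52 and 3.81 against wild-type P50. These calls were lost without wild-type P60 replicate 2 for Cadps2 (1.33, adjusted p = 0.0559) and without wild-type P90 replicate 2 for Anxa5 (1.44, adjusted p = 0.0592). Wild-type levels of Anxa5 were 3.96 and 3.13 CPM at P60 and 10.6 and 4.4 CPM at P90. For Ndrg1 the difference was not called (0.55, adjusted p = 0.11).

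Further rises were those of Rnf207, a RING-finger protein gene (15.3 and 20.7 to 72.1 and 79.6 CPM, 2.07), the phosphatidylinositol transfer gene Pitpnm3 (87.7 and 82.7 to 179 and 191 CPM, 1.12), and Ebpl, an emopamil-binding-like gene (31.2 and 31.8 to 72.6 and 87 CPM, 1.34). Fabp7, the brain fatty acid-binding protein, rose from 14.5 and 13.6 to 45.2 and 57.9 CPM (1.88, SE 0.255, adjusted p = 5.57e-07), while the wild-type libraries had 59.3 and 42.2 CPM at P60 and 22.1 and 32.6 CPM at P90. The collagen gene Col19a1 (4.23 and 4.9 to 21 and 25.6 CPM, 2.34) and Heatr7b1 (3.91 and 6.26 to 23.1 and 22.3 CPM, 2.14) rose from low levels. Col19a1 was under 5 CPM at P60 and passed the filter through its P90 libraries. Cp, the copper-carrying ferroxidase ceruloplasmin, rose from 32.4 and 41.1 to 88.9 and 87.2 CPM (1.26) and rose by 1.44 in wild type, without a call of the difference (adjusted p = 0.711). Pitpnm3 and Col19a1 also rose in wild type, by 0.92 and 1.84, and their differences of 0.20 and 0.50 were not called (adjusted p = 0.57 and 0.591 by edgeR). The differences of Rnf207 (1.43) and Ebpl (0.95) were called (adjusted p = 0.000779 and 0.0223 by edgeR). The stress cytokine receptor gene Lifr went from 330 and 336 to 524 and 558 CPM (0.70), and the difference from wild type was 0.76 (adjusted p = 0.000181), and 0.76 against P50 (adjusted p = 0.000337). Lifr and Cp belong to the list of retinal stress and gliosis. In this list 3 of 9 tested genes were higher and 1, the cytokine-signalling suppressor gene Socs3 (−1.09), lower, against 5.91% and 8.86% of all genes. Clu, another member, was at 582 and 537 CPM at P60 and 582 and 510 CPM at P90 (−0.03, adjusted p = 0.862).

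Smaller rises in the knockout met falls or lower values in wild type. Adcy1, an adenylate cyclase, went from 149 and 179 to 262 and 298 CPM in the knockout (0.77, SE 0.0891, adjusted p = 1.69e-08) and from 485 and 481 to 422 and 415 CPM in wild type. The difference was 0.98 (adjusted p = 2.57e-07), and 0.75 against P50. Mat2a, which makes the methyl donor S-adenosylmethionine, rose by 0.27 in the knockout with a difference of 0.80 (adjusted p = 2.31e-07) and of 0.37 against P50. The chaperone gene Hspa5 rose by 0.22 (adjusted p = 0.0304) with a difference of 0.77 (adjusted p = 3.82e-07). Against wild-type P50 this difference turned to −0.41 (adjusted p = 0.006 by edgeR). For the catenin-like gene Ctnnal1 (0.70) the difference of 1.44 became 0.30 (adjusted p = 0.463) against P50. The differences of Hspa5 and Ctnnal1 thus rested on the wild-type P60 libraries. Hspa5 was 1 of 2 members called among 24 genes of the unfolded protein response, against 14.8% of all genes. The other was the asparagine synthetase gene Asns, which fell by 0.58. The call of Hspa5 in the knockout step was lost without any 1 of the 4 libraries, that of Asns without P60 replicate 1 or either P90 library, and that of Mat2a without the second replicate of either age.

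In the list of p53 targets and apoptosis genes, 8 of 20 tested were higher and 1 lower, against 5.91% and 8.86% of all genes, with a median of 0.36. Cdkn1a, the p53-induced inhibitor of the cell cycle, was at 12.2 and 14.4 CPM at P60 and 52.6 and 56.5 CPM at P90 (2.03, SE 0.45, adjusted p = 0.00138). The wild-type libraries had 0 counts of Cdkn1a at P60 and 1.15 and 0.259 CPM at P90. Trp53inp1, a p53-induced nuclear protein, rose from 258 and 283 to 405 and 415 CPM (0.60, SE 0.0961, adjusted p = 1.36e-05), with a difference from wild type of 1.00 (adjusted p = 2.88e-06, and 1.01 against P50). Ccng1, cyclin G1, rose from 280 and 320 to 395 and 398 CPM (0.40, adjusted p = 0.00293), with a difference of 0.57 (adjusted p = 0.00473) and of 0.63 against P50. The count of 8 was 2 with filterByExpr or without a filter. It was 2 without P60 replicate 1, 3 without P90 replicate 2, and 4 without P60 replicate 2 or P90 replicate 1. The call of Ccng1 was lost without P60 replicate 1 (0.31, adjusted p = 0.0814), and those of Cdkn1a and Trp53inp1 held without each library.

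Of 24 immediate early genes 11 passed the filter, 5 of them higher (5.91% over all genes) and none lower, with a median of 0.57. Egr1 went from 87.4 and 78.3 to 154 and 149 CPM (0.87, SE 0.186, adjusted p = 0.000799), Fos from 11.6 and 13.6 to 19.8 and 32.5 CPM (1.05) and Jun from 71.6 and 63.5 to 98.2 and 102 CPM (0.57). Each is a transcription factor gene induced within minutes by activity or stress. The nuclear receptor gene Nr4a1 rose by 0.57, a call lost without any 1 of the 4 libraries (adjusted p = 0.0682 to 0.213). The call of Fos was lost without P60 replicate 1 or P90 replicate 2, and that of Jun without P60 replicate 2 or either P90 library. The differences from wild type were 1.85 for Egr1 (adjusted p = 1.41e-05) and 1.12 for Nr4a1 (adjusted p = 0.00643) and turned to −0.62 and −0.74, without a call, against wild-type P50. Of 15 cytosolic heat shock genes 1 was higher and 2 lower, with Hspa4 at −0.38, and of 20 clock genes 2 were higher and 3 lower. Over all genes 5.91% were higher and 8.86% lower, so neither list is read as changed. Arntl, the BMAL1 gene, rose from 49.5 and 77.8 to 108 and 113 CPM (0.79) and its output gene Dbp fell from 88.9 and 86.2 to 58.2 and 52.2 CPM (−0.66). The call of Dbp was lost without P90 replicate 2 (−0.60, adjusted p = 0.0528), and the labels do not give the hour at which the animals were taken.

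**Figure D4:**
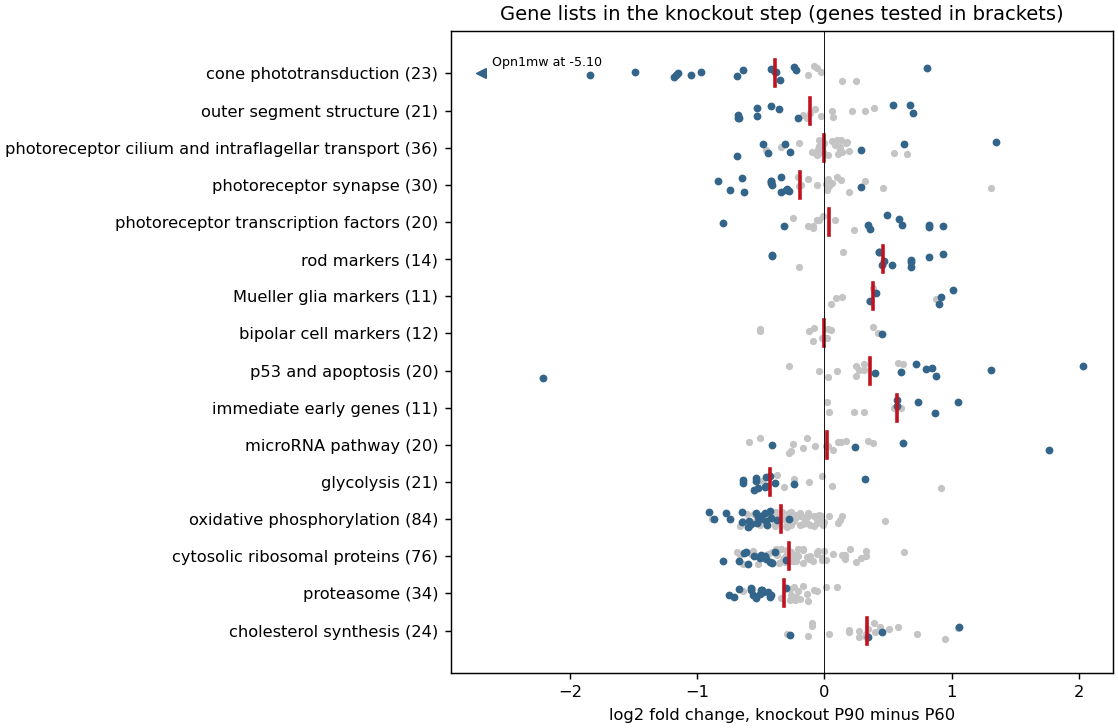
Change from P60 to P90 in knockout cones (horizontal axis, log2 fold change) for the tested members of 16 gene lists, 1 point a gene, in blue where called and grey where not, with a red bar at the list's median. The medians run from −0.43 for glycolysis to 0.57 for immediate early genes, and an arrow marks Opn1mw at −5.10, outside the axis.

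The microRNA machinery changed little in its transcripts. Of 20 genes of the pathway 3 were higher and 1 lower, against 5.91% and 8.86% of all genes, and Dicer1, which cuts the hairpins in the cytoplasm, was at 347 and 346 CPM at P60 and 370 and 356 CPM at P90 (0.07, adjusted p = 0.681). The highest of the called members were the Argonaute gene Eif2c4 (0.62, adjusted p = 0.031) and Lin28b (1.77, adjusted p = 0.0111), which blocks let-7 maturation and was at 2.12 and 2.86 CPM at P60. Ran, the small GTPase that powers export of precursors, fell by 0.41. Of 579 microRNA genes 14 passed the filter and 2 were higher, both of the miR-183/96/182 cluster. Mir182 and Mir96, like Lin28b, were low at P60 and passed the filter through their P90 libraries. Their being tested thus depended on the rise that is counted here. The mature 5' arms are shown because the seeds of the cluster, bases 2 to 8 in capitals, are alike without any pair being identical.
mmu-miR-182-5p: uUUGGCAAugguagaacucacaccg
mmu-miR-96-5p: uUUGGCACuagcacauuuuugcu
mmu-miR-183-5p: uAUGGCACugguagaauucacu
The hairpins lie within one stretch of the minus strand of chromosome 6 (GRCm38.p6, RefSeq), Mir182 at 30165918 to 30165992, Mir96 at 30169446 to 30169551 and Mir183 at 30169668 to 30169737. Mir182 had 15 and 12 counts at P60 and 54 and 44 at P90 (2.25, SE 0.68, adjusted p = 0.0211). Mir96 had 9 and 49 counts at P60 and 66 and 73 at P90 (1.73, SE 0.559, adjusted p = 0.0309). Mir183 had 0 and 4 counts at P60 and 14 and 20 at P90 and was under the filter. The 3 hairpins thus read higher at P90 on few counts. These libraries were made from fragments of total RNA, in which a read over a hairpin may come from the primary transcript and is not a measure of the mature microRNA. The call of Mir182 was lost without any 1 of the 4 libraries, with adjusted p-values of 0.0583 to 0.127. The call of Mir96 was lost without P60 replicate 1 (1.04, adjusted p = 0.306) and without P90 replicate 1 or 2 (adjusted p = 0.0906 and 0.155). The call of Ran was lost with edgeR fitted to the 4 knockout libraries alone (adjusted p = 0.0689). Those of Eif2c4, Lin28b and Ran were also lost without 1 library, Ran without P60 replicate 2 or either P90 library and Lin28b without P60 replicate 1 or P90 replicate 2.

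Among the genes of energy supply, more were called lower than higher. In glycolysis 12 of 21 genes were lower and 1 higher, against 8.86% and 5.91% of all genes, with a median of −0.43. Aldoa, aldolase, fell from 1460 and 1720 to 1090 and 1110 CPM (−0.54), Pkm, pyruvate kinase, from 1760 and 1730 to 1280 and 1320 CPM (−0.43), and the lactate carrier gene Slc16a1 from 384 and 384 to 262 and 232 CPM (−0.64). Pfkp, phosphofructokinase of platelet type, rose (0.32), a call lost without P60 replicate 1 or P90 replicate 2. Of 84 genes of oxidative phosphorylation 21 were lower and none higher, with a median of −0.34. Uqcrc1, of complex III, fell from 115 and 114 to 70.4 and 50.8 CPM (−0.91) and Atp5a1, of the ATP synthase, from 701 and 706 to 518 and 574 CPM (−0.37). The wild-type medians over the same interval were −0.20 for glycolysis and −0.47 for oxidative phosphorylation, and the difference of the steps was called for 2 and 1 members. Without P60 replicate 1 or P90 replicate 1 the oxidative phosphorylation count was 14.

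In the lists of protein turnover a minority of members was called, all of them lower. Of 34 proteasome genes 15 were lower, against 8.86% of all genes, and none higher (median −0.32), among them Psmc1 (234 and 205 to 141 and 153 CPM, −0.58) and Psmd2 (237 and 230 to 167 and 160 CPM, −0.51). Of 76 cytosolic ribosomal protein genes 14 were lower and none higher (median −0.28), with Rpl4 falling from 433 and 364 to 292 and 272 CPM (−0.50). Ribosomal protein genes have many processed copies, and how reads were divided among them is not stated in the labels. Antioxidant genes had 5 lower and none higher of 22, Mt1 first and the peroxiredoxin gene Prdx2 next (78.1 and 96.8 to 55.5 and 58.7 CPM, −0.62). Mt1 has a close neighbour of similar sequence, Mt2, which reads may be shared with. The wild-type medians were −0.50 for the proteasome and −0.37 for ribosomal proteins, and the difference of the steps was called for 1 and 0 members. The proteasome count depended on single libraries, with 6 lower genes without P90 replicate 1, 8 without P60 replicate 2 or P90 replicate 2, and 11 without P60 replicate 1.

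Lipid genes were mixed. Of 24 cholesterol synthesis genes 3 were higher and 1 lower (median 0.33), against 5.91% and 8.86% of all genes, with Sc4mol, a sterol oxidase, at 146 and 160 CPM at P60 and 212 and 207 CPM at P90 (0.45). Of 24 genes of fatty acid and ketone use 3 were higher and 3 lower. The stearoyl-CoA desaturase gene Scd2 rose from 243 and 239 to 358 and 365 CPM (0.59), and Acsl1, which activates long-chain fatty acids, fell from 504 and 552 to 399 and 375 CPM (−0.45). Oxct1, the ketone-body enzyme, fell from 577 and 639 to 448 and 486 CPM (−0.38, SE 0.0808, adjusted p = 0.000746), with a wild-type change of −0.55 and no call of the difference (0.17, adjusted p = 0.424). Of 26 lysosome and autophagy genes 2 were higher and 1 lower, and of 14 matrix and adhesion genes 2 were higher. Of 7 tested interferon-response genes none was called by edgeR, and the 16 tested genes reported as miR-124 targets held 2 higher and 2 lower ones. The call of Sc4mol was lost without P60 replicate 1 or P90 replicate 1, with filterByExpr and without a filter.

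The course before P60 placed the interval in time. From P50 to P60 the knockout called 343 genes higher (3.26%) and 370 lower (3.51%), 6.77% in all. From P50 to P90 it called 1311 higher (12.4%) and 1586 lower (15.1%), 27.5% in all. The P50 to P60 counts were 111 and 195 without P50 replicate 1, 120 and 186 without P50 replicate 2, and 138 and 184 without P60 replicate 1. The P50 to P90 counts were 755 and 1029 without P50 replicate 1, 772 higher without P50 replicate 2 and 841 higher without P90 replicate 1. All these comparisons share libraries, so their values are set side by side only. Opn1mw averaged 1950, 2190, 1340, 356 and 10.3 CPM in the knockout at P30, P40, P50, P60 and P90, so it was already changed by −1.91 from P50 to P60. Kcne2, Fam19a3 and Kcnma1 changed by −0.88, −1.02 and −0.99 in that earlier step. For Arr3 the earlier change was −0.11 (adjusted p = 0.37), and its fall lay between P60 and P90. Among the rising genes Cadps2 (0.36, adjusted p = 0.544), Pitpnm3 (0.01, adjusted p = 0.975), Ebpl (−0.01, adjusted p = 0.987) and Cp (−0.01, adjusted p = 0.986) had no call before P60, while Cdkn1a had risen by 2.66 from P50 to P60 (adjusted p = 0.00095). Rnf207 and Col19a1 had first fallen, with changes of −0.86 and −1.14 (adjusted p = 0.00788 and 0.0491 by edgeR), and from P50 to P90 they changed by 1.21 and 1.20. Conversely, Cplx3 and Pcdh15 changed by 0.53 and 0.43 from P50 to P60. From P50 to P90 they changed by −0.21 (adjusted p = 0.0872 by edgeR, not called) and −0.24 (adjusted p = 0.00769).

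**Figure D5:**
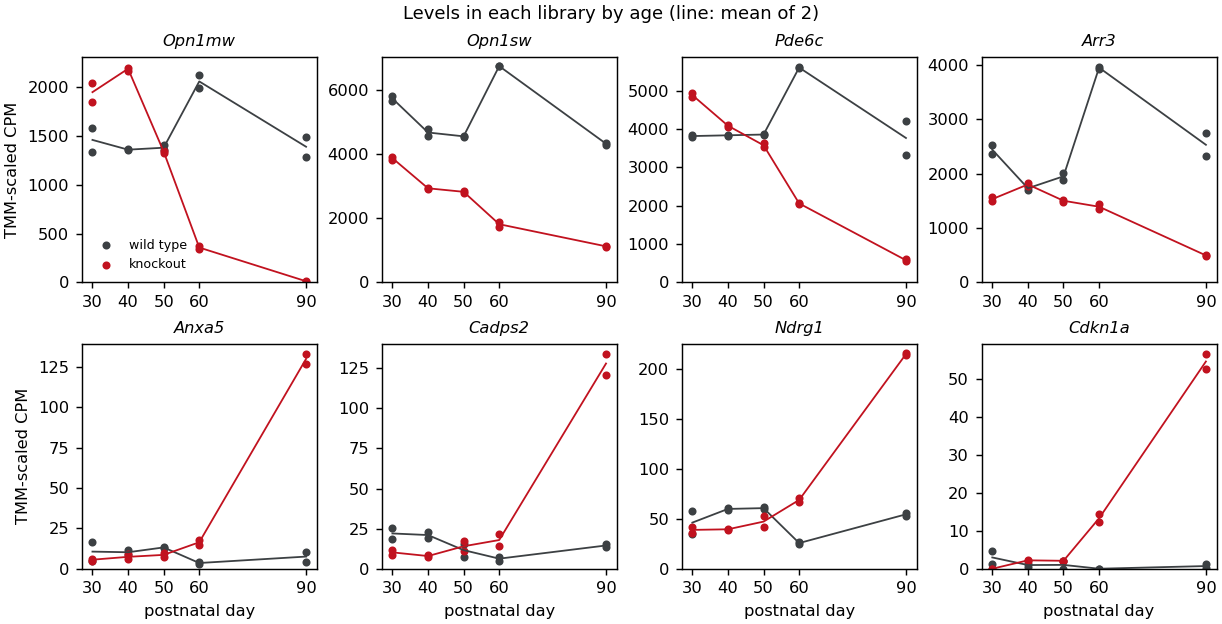
Levels (vertical axis, TMM-scaled CPM, linear from 0) of 4 falling and 4 rising genes by postnatal day, 1 point a library and a line through the mean of 2, with wild type in grey and knockout in red. Knockout Opn1mw falls from 1340 CPM at P50 to 356 at P60 and 10.3 at P90, and Anxa5 rises to 127 and 133 CPM at P90.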

How the data were processed

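RNA-seq count files of 20 libraries of sorted mouse cones were used, of which the 4 knockout libraries at P60 and P90 define the comparison. The authors deposited whole-number read counts per gene symbol, not normalized. Per the labels' protocols, RNA was extracted with Trizol or Arcturus PicoPure, made into ScriptSeq libraries and sequenced in pools of 4 on a HiSeq 2000; which extraction or pool each library had is not stated, so neither could be fitted. CASAVA 1.8.0 and the mm10 (GRCm38) build are named, per the submitters' processing notes. For the aligner, counter, annotation and strand setting the entry is: not given in the sources used here. Antisense and overlapping genes therefore cannot be told apart. Rows without a gene name (2 rows, 14 counts in all) were left out.

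The main test was edgeR 4.0.16's quasi-likelihood test (limma 3.58.1, R 4.3.3) with TMM factors and 1 coefficient for each of the 10 groups, on genes averaging 5 CPM or more in the 4 libraries. The difference of steps is the knockout step minus the wild-type step. The biological coefficient of variation was 0.119, and replicate libraries varied 2.26 to 8.51 times as much as read sampling alone gives. On simulated counts the test was checked for the recovery of known changes. The members and gene lists were chosen with earlier results of these data known. Genes were named by rule: in the knockout step the first 12 called genes each way by p, with at least 2-fold change and no overlap, in the difference of steps 6 and 6, up to 4 called members a list, and a fixed few. Other members of the cone phototransduction list, Pclo, Pfkp, Rxrg and the other list members beyond these were named after their values were seen. The fold threshold, RLE factors, TMM on genes averaging 32 CPM or more, edgeR's filterByExpr, no filter, DESeq2 1.42.0, the replicate block, fewer libraries in the fit and each library left out were tried as alternatives. Not every gene that the rule gives is described. Coordinates and sequences come from RefSeq tables of GRCm38.p6. Python 3.11.15 with pandas 2.3.3, numpy 2.4.6 and matplotlib 3.10.9 served for tables and plots.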

Additional observations from a re-analysis of the deposited data

Results flagged for a closer look

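For 54 of the genes named, the change from P60 to P90 differed between knockout and wild type by edgeR's test of the difference itself (knockout minus wild type, log2, adjusted p below 0.05). Cone genes changed more negatively in the knockout, with Opn1mw at −4.54, Pde6c −1.26, Arr3 −0.85, Cngb3 −0.61, Slc24a2 −0.54, Guca1a −0.49, Gnat2 −0.41 and Cnga3 −0.40, and Grk1 (0.33), Rcvrn (0.37) and Gnb5 (0.41) more positively. Kcne2 was at −1.79, Fam19a3 and Kcnma1 at −1.61, Mt1 at −1.07, Pcdh15 at −1.05 and Scg3 at −0.74.

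Nap1l5 (−1.43), Epb4.1l3 (−1.44), Asns (−0.81), Pclo (−0.78), Rxrg (−0.77), Meg3 (−1.60) and Trpm3 (−1.34) were more negative too. So were markers of other cells, Aqp4 (−1.16) and Cnga1 (−0.37). Heatr7b1 (−8.10) and Fkbp9 (−4.16) had 0 and at most 2.67 CPM in wild-type P60, so the fitted values are no measure of size.

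More positive in the knockout were Fabp7 (2.76), Anxa5 (1.92), Cadps2 (1.64), Ctnnal1 (1.44), Rnf207 (1.43), Adcy1 (0.98), Ebpl (0.95), Mat2a (0.80), Hspa5 (0.77), Lifr (0.76), Samd7 (0.75), Bbs7 (0.69), Nr2e3 (0.62), Sc4mol (0.54) and Rp1 (0.46). Trp53inp1 (1.00), Ccng1 (0.57), Egr1 (1.85), Fos (1.23), Nr4a1 (1.12) and Arntl (0.67) completed these. Xist was at −4.75 and the Y-linked genes at 2.31 (Kdm5d), 2.19 (Eif2s3y), 1.99 (Uty) and 1.81 (Ddx3y), for which sex and age cannot be told apart in these libraries. The wild-type P60 libraries stand apart in depth and genes detected. Against wild-type P50 39 of these 54 differences kept direction and call. The call was lost for Gnb5 (0.15, adjusted p = 0.463), Asns (−0.72, adjusted p = 0.0912), Fos (0.13, adjusted p = 0.915), Ctnnal1 (0.30, adjusted p = 0.463) and Fkbp9 (−0.26, adjusted p = 0.668), and the direction turned for the other 10. Among these, edgeR called the opposite direction for Cnga1 (1.00, adjusted p = 1.91e-07), Hspa5 (−0.41, adjusted p = 0.006), Aqp4 (1.26, adjusted p = 0.00804), Trpm3 (1.03, adjusted p = 0.00853) and Heatr7b1 (1.47, adjusted p = 0.0236).

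Several of these calls were also lost under other settings by edgeR. The Fos difference (adjusted p = 0.0497) was lost with TMM on abundant genes (adjusted p = 0.053) and without each of 6 libraries (0.81 to 1.33), and that of Cnga1 with RLE factors (adjusted p = 0.0501), with filterByExpr (−0.23, adjusted p = 0.257), without a filter (−0.21, adjusted p = 0.366) and without each of 6 libraries. Those of Cnga3 (adjusted p = 0.168 and 0.238), Asns (0.0706 and 0.0854) and Rxrg (0.0992 and 0.113) were lost with filterByExpr and without a filter, and without 4, 5 and 7 libraries in turn. The Rxrg call was lost with RLE factors as well (adjusted p = 0.0513) and the Sc4mol call with TMM on abundant genes (adjusted p = 0.0515) and without each of 6 libraries. The calls of Nr2e3 and Arntl were lost without each of 5 libraries, those of Aqp4 and Ebpl without each of 4, and those of Grk1, Rcvrn, Gnb5, Slc24a2, Gnat2, Cadps2 and Anxa5 without 1.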

How the results depend on the processing

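The limits are 2 libraries a group, of unstated origin, and wild-type P60 libraries that stand apart. Upward and downward calls of the knockout step were 623 and 933. With filterByExpr the downward count was 1553 and without a filter 1550, and at least 2-fold changes were 206 and 101. With 1 library left out the counts ranged from 290 to 518 and from 553 to 806. The wild-type step had 1883 and 1448 calls. They became 5369 and 3714 with filterByExpr, 5329 and 3757 without a filter, 457 and 416 with wild-type P50 in place of P60, and 1097 and 37 at 2-fold. Left-out libraries gave 1168 to 1663 higher and 1010 to 1567 lower. The difference of steps, 332 and 842, became 817 and 1662 with filterByExpr, 883 and 1748 without a filter, 454 lower against wild-type P50, and 79 and 556 at 2-fold. Left-out libraries gave 190 to 442 and 530 to 813. From P50 to P90 the counts of 1311 and 1586 became 828 higher with filterByExpr, 799 without a filter, 336 and 254 at 2-fold, and 755 to 899 and 1029 to 1136 with a library left out. From P50 to P60 they were 343 and 370, 57 and 46 at 2-fold, and 111 to 385 and 184 to 435 with a library left out. The filters change how many genes are tested (18354 and 22553), and the cause of the other moves was not tested.

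The replicate numbers did not pair the libraries: the deviations of same-numbered libraries at P60 and P90 of the knockout had a correlation of 0.00365. With the number as a replicate block the knockout step called 595 higher and 922 lower, the wild-type step 1865 and 1406, and the difference 316 and 824. Among the named differences the block ended the calls of Fos (1.20, adjusted p = 0.0519) and Cnga1 (−0.37, adjusted p = 0.0549).

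Of 99 knockout changes that were called among the named genes, 74 kept direction and call in all 14 alternatives tried for them, and of 54 called differences 28 did so in all 15. DESeq2 kept all 56 differences computed, called or not, on the same side.

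Against wild-type P50 the difference of steps turned for Heatr7b1 (1.47), Aqp4 (1.26), Cnga1 (1.00), Egr1 (−0.62), Nr4a1 (−0.74), Hspa5 (−0.41), Pde6h (−0.59), Pclo (0.06), Meg3 (0.06), Trpm3 (1.03) and Grk1 (−0.02). The turned difference was called for Heatr7b1, Aqp4, Cnga1, Hspa5, Pde6h and Trpm3 and not for the others. The uncalled difference of Opn1sw turned to 0.09 with filterByExpr, 0.11 without a filter and 0.00 without wild-type P90 replicate 2, within −0.13 to 0.00 over all libraries left out in turn, and that of Pde6h lay between −0.14 and 0.30. The uncalled knockout step of Dicer1 turned to −0.06 with filterByExpr and without a filter, that of Grk1 to 0.02 with factors from abundant genes, that of Kcnv2 to 0.03 without P60 replicate 2 (from −0.16 over the left-out libraries), and that of Clu to 0.02 with those factors and lay between −0.15 and 0.05 with 1 library left out.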

Other observations

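The knockout step of transcripts that host microRNAs is given here. Of 13 listed, 8 passed the filter in the 4 knockout libraries, 4 were higher at P90 (5.91% over all genes) and none lower, with a median of 0.32 against 0.00 over all genes. Among the higher ones, Mirg went from 3.26 and 2.99 to 8.2 and 8.8 CPM and Dnm3os from 1.79 and 4.08 to 8.01 and 9.42 CPM. Both were under 5 CPM at P60 and passed the filter through their P90 libraries, so the filter itself favoured counting them as higher. Meg3, a maternally expressed noncoding RNA, went from 229 and 211 to 285 and 294 CPM (0.39, SE 0.1, adjusted p = 0.00519 by edgeR), and Trpm3, a channel gene that holds a microRNA in an intron, from 58.8 and 49.4 to 77.2 and 94.2 CPM (0.67, SE 0.182, adjusted p = 0.00947). In each gene both P90 libraries lay above both P60 libraries, as in 26.5% of all genes tested. The call of Meg3 was lost with filterByExpr or without a filter, and for both genes the call was lost without at least 1 of the 4 libraries. The wild-type step was higher for 6 of the 8 (median 1.49), against 17.9% of all genes. The difference of the steps was called more negative for 4, against 7.99% of all genes. For Meg3 it was −1.60 and became 0.06 (adjusted p = 0.877 by edgeR) with wild-type P50 in place of P60. For Trpm3 it was −1.34 and became 1.03, called in the opposite direction (adjusted p = 0.00853 by edgeR).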
